A study of Mus musculus with 8 samples.

Results

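The LDL receptor family and its endocytic partners were followed as 8 genes of the count table, out of 53819 gene rows. The members were *Lrp1*, *Lrp5*, *Lrp10*, *Lrp12* and *Vldlr*, which encode receptors of the family, *Lrpap1*, which encodes their chaperone, and *Sort1* and *Sorl1*, which encode sorting receptors with a VPS10 domain. They were chosen by name with earlier results of the same bilirubin and vehicle cultures known, so their levels and changes between these cultures are a description. The calls and intervals that the fit across all genes gave them are printed as part of it and are not an independent test. Bone marrow-derived macrophages (BMDM) were grown from 4 female BALB/cJ mice aged 8 weeks, and mRNA was sequenced from a vehicle and a bilirubin culture of each mouse, 8 libraries in all. The comparison asked how unconjugated bilirubin, the end product of heme breakdown, alters gene expression in macrophages. All cultures had 5 days of differentiation in 25 ng/mL of the macrophage colony-stimulating factor M-CSF and then 48 h with DMSO alone (vehicle, 0 µM) or with 2.5 µM bilirubin. BMDM are cells grown outside the animal in a single growth factor, which limits them as a model of macrophages in tissue.

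Receptors of the LDL receptor family carry clusters of ligand-binding repeats on the cell surface and bring lipoproteins, proteases, protease inhibitors and cell debris into the cell through clathrin-coated pits. A chaperone in the endoplasmic reticulum keeps ligands off the new receptors until they reach the surface, cytosolic adaptors bind their short tails, and sorting receptors move cargo between the Golgi, endosomes and lysosomes. In macrophages LRP1 is the best known of them, as a receptor for apolipoprotein E, for complexes of proteases with their inhibitors and for calreticulin on dying cells, while LRP5 is a co-receptor for Wnt ligands.

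The upstream sequences of the 4 members that were called lower with bilirubin are shown as a description. Whether these genes share a control was not tested. Each is the 250 bases before the 5′ end of the gene in GENCODE vM39 on GRCm39, read 5′ to 3′ on the strand of the gene, with matches to the searched motifs in capitals. The most-read transcript starts 79 bases from this end for *Lrp5* and 25 bases from it for *Lrp12*. For *Lrp1* and *Sort1* it starts at this end. *Lrp1* lies on the minus strand of chromosome 10, and its window is chr10:127457018-127457267. The window of *Lrp5*, also on the minus strand, is chr19:3736644-3736893. *Lrp12* is on the minus strand, with the window chr15:39807416-39807665, and *Sort1* is on the plus strand, with the window chr3:108191035-108191284.
Lrp1: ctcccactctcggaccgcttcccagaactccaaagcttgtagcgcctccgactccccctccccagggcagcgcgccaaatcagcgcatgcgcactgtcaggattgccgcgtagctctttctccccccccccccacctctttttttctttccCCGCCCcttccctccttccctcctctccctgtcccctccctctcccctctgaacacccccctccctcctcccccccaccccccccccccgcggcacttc
Lrp5: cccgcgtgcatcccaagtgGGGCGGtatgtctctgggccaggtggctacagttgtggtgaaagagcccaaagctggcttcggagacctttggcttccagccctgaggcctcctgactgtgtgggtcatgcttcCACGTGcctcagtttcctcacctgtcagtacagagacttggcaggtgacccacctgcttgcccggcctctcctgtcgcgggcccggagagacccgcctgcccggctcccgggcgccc
Lrp12: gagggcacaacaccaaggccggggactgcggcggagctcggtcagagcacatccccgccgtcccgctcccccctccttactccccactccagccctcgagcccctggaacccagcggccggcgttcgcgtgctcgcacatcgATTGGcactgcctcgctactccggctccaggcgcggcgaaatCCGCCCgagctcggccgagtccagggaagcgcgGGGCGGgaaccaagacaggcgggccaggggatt
Sort1: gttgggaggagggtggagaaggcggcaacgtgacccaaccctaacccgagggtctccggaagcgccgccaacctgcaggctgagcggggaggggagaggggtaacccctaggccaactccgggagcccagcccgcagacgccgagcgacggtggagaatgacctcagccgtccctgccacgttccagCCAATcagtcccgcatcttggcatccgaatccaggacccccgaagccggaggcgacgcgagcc

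The motifs searched on both strands were the GC box GGGCGG, the CCAAT box CCAAT, the E-box CACGTG, the TATA box TATAAA, the AP-1 site TGANTCA, the NF-kB site GGGANTTCC and the sterol element TCACNCCAC, and no match overlapped a match to another motif in these 4 windows. A GC box was in the windows of 5 of the 8 members (*Lrp1*, *Lrp5*, *Lrp10*, *Lrp12* and *Sorl1*), against 37.5% of the windows of 13679 tested genes. *Lrp12* held 2 of them. A CCAAT box was in 5 of 8 (*Lrp10*, *Lrp12*, *Vldlr*, *Lrpap1* and *Sort1*), against 34.9% of windows, and an E-box was found in *Lrp5* alone of the members, against 6.73%. The TATA box, the AP-1 site, the NF-kB site and the sterol element matched in 0 of the 8 windows, and in 9.47%, 5.09%, 1.44% and 0.972% of all windows. The G and C content of the printed windows was 67.2% for *Lrp1*, 65.2% for *Lrp5*, 71.2% for *Lrp12* and 68.0% for *Sort1*. All 4 were above the median window at 53.2%. The window of *Sorl1*, which was not called, was also above this median and above that of *Lrp5*. The windows of *Lrp10*, *Vldlr* and *Lrpap1* were below the median.

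The libraries held 34142781 to 47071714 estimated counts on genes, and the bilirubin culture of mouse 1 was the shallowest. Counts were scaled with edgeR's TMM factors to CPM, the counts of a gene relative to the scaled library total. Of 53819 genes, 13722 had enough counts to be tested, and 1033 were past the threshold (adjusted p of 0.05, quasi-likelihood test of edgeR, mouse and treatment in the model), 616 higher and 417 lower with bilirubin. The 9 macrophage markers together took 24401 to 24734 CPM in vehicle and 28852 to 30968 CPM in bilirubin cultures, and 4 of them (*Adgre1*, *Itgam*, *Lyz2* and *Cd14*) were called higher. Most of this sum was *Lyz2*, at 19145 CPM in vehicle and 24369 CPM in bilirubin cultures on average. The other 5 were not called, with log2 fold changes of 0.08 for *Spi1*, -0.02 for *Csf1r*, -0.16 for *Cd68*, -0.15 for *Mertk* and -0.20 for *Fcgr1*. Of 6 T cell markers, *Cd3e*, *Cd3d*, *Cd3g* and *Cd8a* had at most 3 counts in every library, and the list summed to 217 to 254 CPM in vehicle and 172 to 303 CPM in bilirubin cultures, nearly all of it *Il7r*. Of 4 B cell markers, *Cd79a*, *Ms4a1* and *Pax5* had at most 3 counts, and *Cd79b* had at most 18. The mast cell and basophil markers *Mcpt4*, *Mcpt8*, *Prss34*, *Fcer1a* and *Cma1* were at 0. Of 8 osteoclast markers, 4 were called higher (*Ctsk*, *Acp5*, *Dcstamp* and *Mmp9*), and the whole list summed to 78.5 to 96.6 CPM in vehicle and 127 to 181 CPM in bilirubin cultures. Its most abundant gene in vehicle, *Atp6v0d2*, was not called, at 53.3 CPM in vehicle and 50.1 CPM in bilirubin cultures, nor was *Ocstamp* (log2 fold change -0.27), and *Calcr* and *Oscar* were at 0. The 10 neutrophil markers summed to 33.0 to 39.8 CPM in vehicle and 45.2 to 54.2 CPM in bilirubin cultures. Of these, *S100a8* was called higher, and *Ly6g*, *Camp* and *Retnlg* were at 3 counts or fewer. *Csf3r*, the most abundant of this list in vehicle, was not called (log2 fold change -0.06). The endothelial markers, mostly *Vwf*, summed to more than the neutrophil markers in both groups, and none was called. The part of these lists in the results below was not tested.

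Of the 8 members, 7 had enough counts to be tested, and 4 of them were called, *Lrp1*, *Lrp5*, *Lrp12* and *Sort1*, all lower with bilirubin. The share called among all tested genes was 7.53%, with 4.49% higher and 3.04% lower. As the members were selected on this contrast, nothing is read from their count. The median log2 fold change of the 7 tested members was -0.20, against -0.0018 over all tested genes. For the same reason, nothing is read from this difference. In bulk libraries, fewer cells that express a gene and less of its RNA per cell cannot be told apart.

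**Figure D1:**
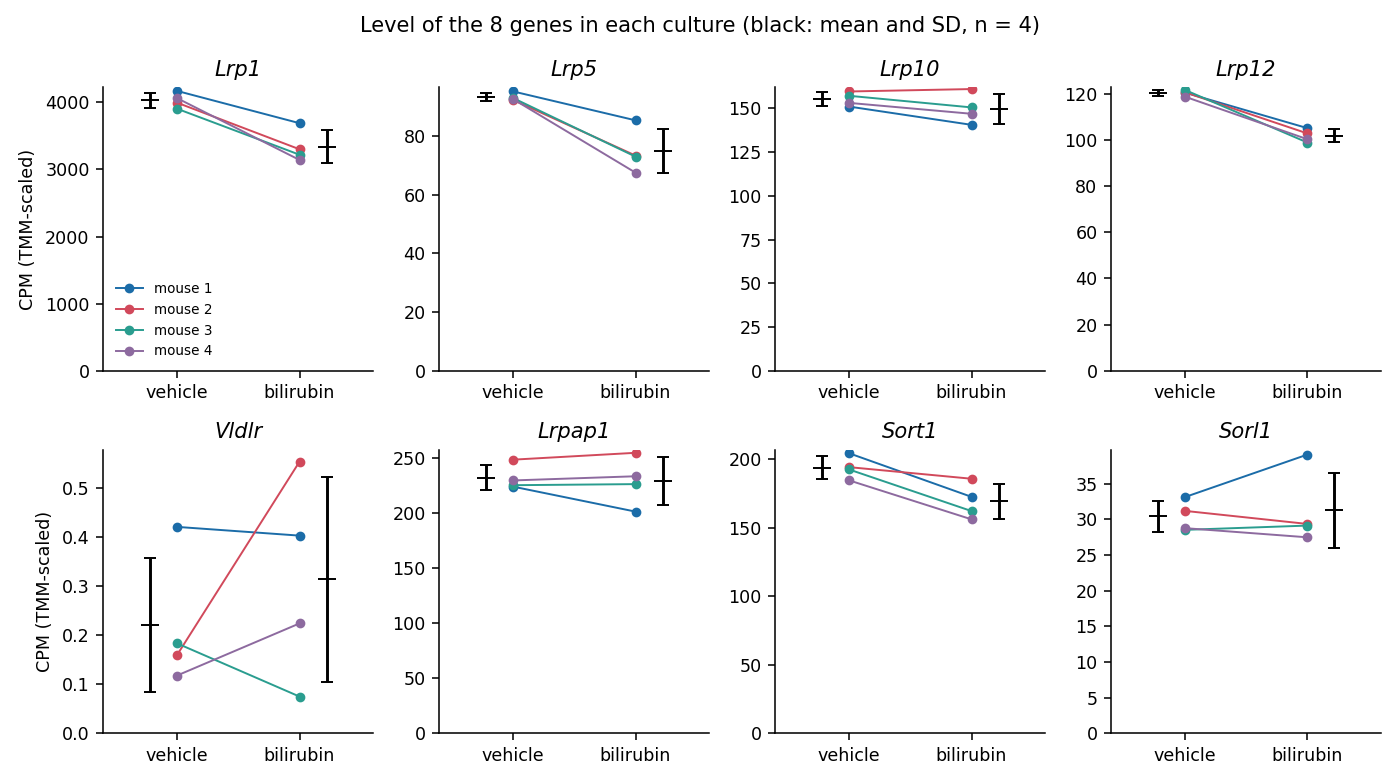
TMM-scaled CPM (y axis) of each of the 8 genes in the vehicle and bilirubin cultures, with a line for each mouse and the mean and SD of each group (n = 4) in black. *Lrp1*, *Lrp5* and *Lrp12* are lower in bilirubin than in vehicle in all 4 mice without overlap of the groups, and the lines of *Lrpap1*, *Sorl1* and *Vldlr* run in both directions.

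*Lrp1* (ENSMUSG00000040249, chr10:127374012-127457017) encodes the large endocytic receptor LRP1. It had 4171, 3996, 3906 and 4064 CPM in the vehicle cultures of mice 1 to 4. In the bilirubin cultures it had 3689, 3301, 3219 and 3141 CPM. Every bilirubin culture was below every vehicle culture, and mouse 1 had the smallest difference, -0.18 on the log2 scale, against -0.37 in mouse 4. The group means were 4034 ± 112 CPM (SD, n = 4) and 3338 ± 243 CPM (SD, n = 4), and the fitted log2 fold change was -0.28 (SE 0.04, 95% interval -0.36 to -0.19), which is 17.4% lower. Groups without overlap, bilirubin below vehicle, were seen for 4.69% of tested genes. With an offset for the transcript length in each library, the change was -0.23 and *Lrp1* was no longer called.

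The estimate of *Lrp1* per length, in TPM (transcript abundance scaled for length and library size), did not separate the groups. The deposited TPM of its transcripts summed to 662, 638, 647 and 667 in vehicle, and to 672, 507, 504 and 506 in bilirubin cultures. The bilirubin culture of mouse 1 was thus above all vehicle cultures on this scale, and those of mice 2 to 4 were below them. *Lrp1* has 10 annotated transcripts in the files, of which the full-length coding form *Lrp1-201*, 14888 bases long, took 97.9% of the gene's estimated counts in vehicle and 97.7% in bilirubin cultures. The short forms *Lrp1-205* (679 bases) and *Lrp1-208* (763 bases), which are annotated as a target of nonsense-mediated decay and as a retained intron, took 0.835% and 1.14% of the counts but 15.7% and 18.4% of the TPM in vehicle cultures. *Lrp1-201* alone had 438, 412, 402 and 421 TPM in vehicle and 388, 324, 323 and 304 TPM in bilirubin cultures, so that the full-length form was lower in every bilirubin culture than in any vehicle culture. How many of all transcripts separate in this way was not computed.

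*Lrp5* (ENSMUSG00000024913, chr19:3634821-3736643) encodes a co-receptor that binds Wnt ligands together with Frizzled proteins. Its level was 95.2, 92.3, 92.9 and 92.6 CPM in the vehicle cultures of mice 1 to 4. In the bilirubin cultures it was 85.3, 73.3, 72.9 and 67.5 CPM. The groups did not overlap, the vehicle cultures lay close together, and the bilirubin cultures were more spread. The log2 fold change was -0.32 (SE 0.05, 95% interval -0.44 to -0.21), a level 20.1% lower and the largest decrease among the members. The change by mouse ran from -0.16 in mouse 1 to -0.46 in mouse 4, the same order at both ends as for *Lrp1*. *Lrp5* was called in 13 of 14 alternative analyses and was not called without mouse 3.

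*Lrp12* (ENSMUSG00000022305, chr15:39733983-39807415) encodes a receptor with CUB and LDL receptor class A domains. It had 121, 121, 122 and 119 CPM in vehicle cultures. The bilirubin cultures had 105, 103, 98.9 and 100.4 CPM. The groups were narrow and did not overlap. The log2 fold change was -0.24 (SE 0.03, 95% interval -0.32 to -0.16), or 15.5% lower, and the mice differed little, from -0.20 to -0.30. *Lrp12* was the only member called that stayed called in all 14 alternatives.

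A coding exon of 57 bases (19 codons) separates *Lrp12-201* and *Lrp12-202*, the most-read of 4 quantified *Lrp12* transcripts, and it is shown here because it tells these forms apart. The exon lies at chr15:39767935-39767991 on the minus strand, in GRCm39, and is printed in capitals with 10 intron bases on each side.
Lrp12 exon: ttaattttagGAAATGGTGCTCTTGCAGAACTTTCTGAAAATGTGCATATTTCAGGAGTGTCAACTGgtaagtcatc
The form with this exon, *Lrp12-201*, made up 89.9% ± 2.8 (SD, n = 4) of the TPM of the 2 forms in vehicle and 91.0% ± 1.2 (SD, n = 4) in bilirubin cultures, a difference within the spread between cultures. It had 42.3 ± 1.4 TPM in vehicle and 35.3 ± 2.5 TPM in bilirubin cultures (SD, n = 4). The form without the exon, *Lrp12-202*, was also lower on average. It had 4.7 ± 1.3 TPM in vehicle and 3.5 ± 0.3 TPM in bilirubin cultures (SD, n = 4). Its groups overlapped, and in mouse 4 it was higher with bilirubin. Whether the lower level was tied to the exon was not tested. The other two transcripts were at 0 to 4.53 TPM and at 0 to 0.649 TPM, and are not in these shares.

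*Lrp10* (ENSMUSG00000022175, chr14:54701489-54709889) encodes a receptor that moves between the Golgi, endosomes and the surface. Its CPM was 151, 160, 157 and 153 in vehicle cultures and 141, 161, 151 and 147 in bilirubin cultures. The groups overlapped, and the level was lower with bilirubin in 3 of 4 mice. The log2 fold change was -0.05 (SE 0.03), with a 95% interval from -0.13 to 0.03.

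*Vldlr* (ENSMUSG00000024924, chr19:27193862-27231631) encodes the very low density lipoprotein receptor, which also binds reelin. It had 20, 6, 8 and 5 counts in vehicle and 14, 20, 3 and 9 counts in bilirubin cultures, too few to be tested. The counts overlapped, and *Vldlr* was higher in 2 mice and lower in the other 2. At this depth a small or moderate difference was not detectable. With no count filter *Vldlr* was tested, at a log2 fold change of 0.40 (edgeR adjusted p = 0.89). It was also tested without mouse 3 and without mouse 4, and was not called in these fits.

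*Lrpap1* (ENSMUSG00000029103, chr5:35248837-35263892) encodes the receptor-associated protein, the chaperone that most receptors of the family need on their way to the surface. It had 224, 248, 225 and 229 CPM in vehicle cultures and 201, 254, 226 and 233 CPM in bilirubin cultures. The groups overlapped, with mouse 1 lower and mice 2 to 4 slightly higher. The log2 fold change was -0.02 (SE 0.04, 95% interval -0.12 to 0.07), and its sign turned to 0.02 without mouse 1 and to 0.01 with an offset for transcript length. The counts of *Lrp1* for each count of *Lrpap1*, a ratio taken within a library, were 18.6, 16.1, 17.4 and 17.7 in vehicle and 18.3, 13.0, 14.2 and 13.5 in bilirubin cultures. The count ratio was lower with bilirubin in all 4 mice, though by little in mouse 1, whose bilirubin culture lay among the vehicle cultures. The ratio of their TPM was lower in mice 2 to 4, but in mouse 1 it was 2.94 in vehicle and 3.14 in the bilirubin culture, above all vehicle cultures.

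*Sort1* (ENSMUSG00000068747, chr3:108191285-108268842) encodes sortilin, which carries proteins such as lysosomal enzymes and progranulin from the Golgi or the surface to endosomes. It had 205, 194, 193 and 185 CPM in vehicle cultures. In bilirubin cultures it had 173, 186, 162 and 156 CPM. The groups overlapped, as the bilirubin culture of mouse 2 was above the vehicle culture of mouse 4. *Sort1* was lower with bilirubin in all 4 mice, by a log2 fold change of -0.20 (SE 0.04, 95% interval -0.29 to -0.11), which is 12.9% lower. Its place among the called genes was the least stable of the 4, since it was lost without the replicate block (the mouse in the model), with the length offset, without mouse 3 and without mouse 4, while the log2 fold change stayed between -0.25 and -0.18.

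Most *Sort1* RNA was assigned to 2 coding transcripts that differ by a cassette exon of 99 bases (33 codons), in the part of the gene that encodes the stretch next to the membrane. It is shown because the forms with and without it had different values. It lies at chr3:108262788-108262886 on the plus strand of GRCm39, in capitals below with 10 intron bases on each side.
Sort1 exon: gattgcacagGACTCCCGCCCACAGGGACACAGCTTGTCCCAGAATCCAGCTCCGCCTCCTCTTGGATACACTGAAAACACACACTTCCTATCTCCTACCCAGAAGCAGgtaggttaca
The form without the exon, *Sort1-201*, had 29.4, 26.7, 24.4 and 25.1 TPM in vehicle and 24.0, 21.8, 20.1 and 17.1 TPM in bilirubin cultures. It was lower in every bilirubin culture than in any vehicle culture. The margin was narrow, with 24.0 TPM in the bilirubin culture of mouse 1 and 24.4 TPM in the vehicle culture of mouse 3. The share of all transcripts that separate in this way was not computed. The form with the exon, *Sort1-203*, had 19.0, 18.4, 20.2 and 17.6 TPM in vehicle and 17.1, 19.3, 16.7 and 17.1 TPM in bilirubin cultures, and the groups overlapped. The share with the exon was 39.2%, 40.9%, 45.3% and 41.2% in vehicle and 41.6%, 46.9%, 45.3% and 50.0% in bilirubin cultures. It was higher with bilirubin in mice 1, 2 and 4 and nearly equal in mouse 3, and the groups overlapped. These shares are Salmon's assignment of reads between transcripts that differ in little else, so their error includes that assignment, and junction reads were not used here.

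**Figure D2:**
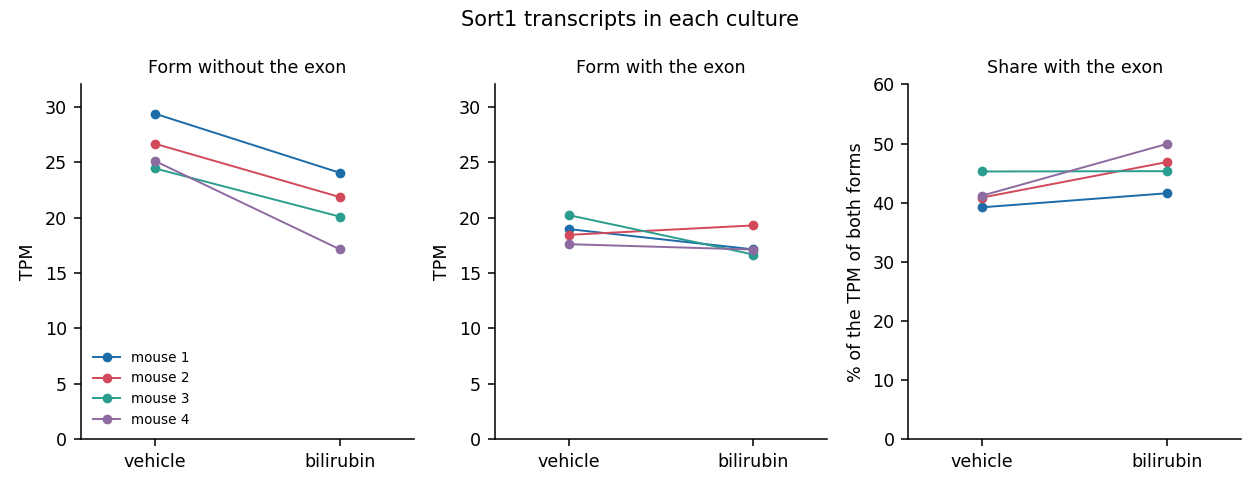
TPM of the *Sort1* transcripts without (left) and with (middle) the cassette exon and the share with it in % (right), with a line from the vehicle to the bilirubin culture of each mouse. The form without the exon is at 24.4 to 29.4 TPM in vehicle and 17.1 to 24.0 TPM in bilirubin cultures, and the form with the exon lies between 16.7 and 20.2 TPM.

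*Sorl1* (ENSMUSG00000049313, chr9:41876012-42035656) encodes SORLA, a sorting receptor that joins a VPS10 domain to LDL receptor repeats. It had 33.1, 31.2, 28.5 and 28.8 CPM in vehicle and 39.1, 29.3, 29.1 and 27.5 CPM in bilirubin cultures. The groups overlapped and the mice were split 2 to 2 in direction. The log2 fold change was 0.03 (SE 0.06, 95% interval -0.11 to 0.17) and was -0.04 without mouse 1.

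Levels between the members were compared per length, in TPM, in vehicle cultures. *Lrp1* was the highest at 654 ± 14 TPM (SD, n = 4), above 98.5% of tested genes, followed by *Lrpap1* at 232 ± 14 TPM (SD, n = 4), above 95.8% of them. *Lrp10* followed at 72.1 ± 5.9 TPM, *Lrp12* at 50.0 ± 2.1, *Sort1* at 45.6 ± 2.1, *Lrp5* at 29.5 ± 0.5, *Sorl1* at 5.0 ± 0.8 and *Vldlr* at 0.33 ± 0.42 TPM (SD, n = 4 each). *Lrp12* and *Sort1* overlapped, and each other neighbour in this order was apart in all 4 vehicle cultures. Short transcripts weigh heavily in this order, since *Lrpap1-205*, with 716 bases, held 45.8% of the TPM of *Lrpap1* but 16.1% of its estimated counts.

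**Figure D3:**
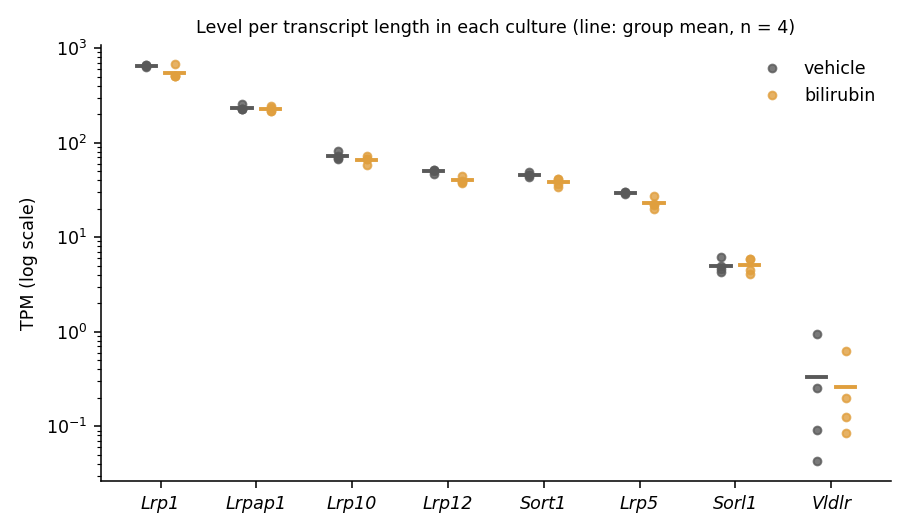
TPM on a log scale (y axis) of the 8 genes, ordered by their mean in vehicle cultures, with a dot for each culture and a line for the group mean. The order runs from *Lrp1* at a vehicle mean of 654 TPM to *Vldlr* at 0.33 TPM, and *Lrp12* and *Sort1* overlap.

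The genes whose log2 CPM followed each member most closely over the 8 libraries are given with Pearson's r as a description, since the libraries share the treatment groups. They were sought among the 8886 tested genes whose log2 CPM averaged 3 or more. *Lsp1* (r = 0.991) and *Tmem273* (r = 0.989) were the most like *Lrp1*, *Ahcyl2* (r = 0.993) and *Wdr26* (r = 0.986) the most like *Lrp5*, and *Id1* (r = 0.996) and *Rasgrp3* (r = 0.992) the most like *Lrp12*. Their log2 fold changes ran from -0.15 for *Wdr26* to -1.07 for *Rasgrp3*, and they are not tested here because likeness to a lower member chose them. *Abca2* and *Wnk1* (both r = 0.98) were the most like *Sort1*, *Pcnx* (r = 0.996) and *Usp15* (r = 0.99) like *Lrp10*, *Cd300c2* (r = 0.985) and *Ppm1f* (r = 0.968) like *Lrpap1*, and *Srek1* and *Epg5* (both r = 0.983) like *Sorl1*. *Lrp1* and *Lrp5* themselves had r = 0.987 over the 8 libraries.

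Across 10906 tested genes with a mean log2 CPM above 1, longer transcripts had slightly lower fold changes, and the most-read transcripts of *Lrp1*, *Lrp5*, *Sort1* and *Sorl1* were in the longest of 5 equal bins of length. The median log2 fold change was 0.03 in the shortest and -0.03 in the longest bin. With the trend along transcript length removed, *Lrp1* was at -0.26, *Lrp5* at -0.31, *Lrp12* at -0.23 and *Sort1* at -0.18, and all 4 stayed called. Long noncoding RNAs annotated on the opposite strand overlap exons of *Lrp1*, *Lrp5*, *Lrp10*, *Vldlr*, *Sort1* and *Sorl1*, and whether the counting used strand is not given in the sources used here, so their reads may not be told apart.

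The list of other receptors of the family held no called change. Of 11 listed genes, 6 had enough counts to be tested, and 0 passed the threshold by edgeR, DESeq2 or limma-voom, with 2 at an unadjusted p under 0.05 by edgeR, *Lrp6* and *Ldlrad4*. *Lrp6*, the paralog of *Lrp5* and also a Wnt co-receptor, was lower in 4 of 4 mice, with a log2 fold change of -0.13 (SE 0.04, edgeR adjusted p = 0.0813), and passed in 3 of 14 alternatives (adjusted p from 0.0442 to 0.325 over edgeR, DESeq2 and limma-voom), scaling by library size alone, the length offset and the fit without mouse 1. The 95% interval of its log2 fold change, -0.22 to -0.05, overlapped that of *Lrp5*, and the difference between them was not tested. *Lrp8*, a receptor for reelin and apolipoprotein E, was at -0.03 (SE 0.10, edgeR adjusted p = 0.92) and at 0.12 without mouse 1. *Lrp1b*, *Lrp2*, *Lrp3*, *Ldlrad1* and *Ldlrad2* had at most 26 counts in a library and were not tested, and neither were *Sorcs1*, *Sorcs2* and *Sorcs3*, the VPS10 receptors beside *Sort1* and *Sorl1*.

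**Figure D4:**
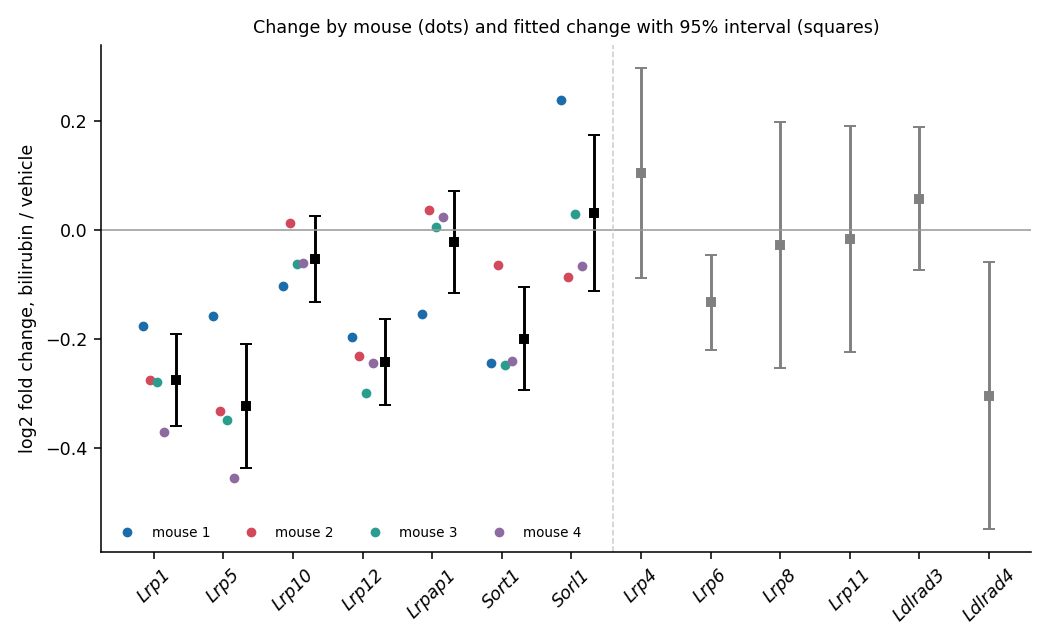
Log2 fold change of bilirubin over vehicle (y axis) for the 7 tested members, with a dot for each mouse and a square with the 95% interval for the fit, and for 6 other tested receptors of the family (grey squares). The intervals of *Lrp1*, *Lrp5*, *Lrp12* and *Sort1* lie below 0, as do those of *Lrp6* and *Ldlrad4*, which did not pass the adjusted threshold.

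For the genes that fold, coat and recycle these receptors, each list is given by its counts. The partner lists were written with earlier results of these data known, so nothing is read from their shares. Of 7 chaperones and factors of receptor degradation, 0 passed by edgeR, DESeq2 or limma-voom, and 2 had an unadjusted p under 0.05. Among them *Mesd*, the chaperone of LRP5 and LRP6, was at -0.05 (edgeR adjusted p = 0.60), and *Mylip*, an E3 ubiquitin ligase, was at -0.13 (edgeR adjusted p = 0.184). Of 24 tested adaptors and clathrin coat genes, 2 fell and 1 rose, 12.5% against 7.53% of all tested genes, with a median log2 fold change of 0.02. Those that fell were *Numb* (-0.27, SE 0.04, edgeR adjusted p = 0.00431) and *Dab2* (-0.27, SE 0.04, edgeR adjusted p = 0.00475), each an adaptor with a domain that binds the NPxY motif of receptor tails. Both were lower in 4 of 4 mice, with *Dab2* at 750 ± 65 CPM (SD, n = 4) in vehicle and 625 ± 71 CPM (SD, n = 4) in bilirubin cultures. *Epn2*, a clathrin adaptor of the epsin family, rose by 0.44 (SE 0.07, edgeR adjusted p = 0.0088). *Dab2* lost its call without the replicate block, *Numb* without mouse 3, and *Epn2* without mouse 3, without mouse 4 and with the length offset. *Snx17*, a sorting nexin that recycles LRP1, was at -0.04 (edgeR adjusted p = 0.615).

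Of 20 retromer, GGA and sorting nexin genes, all tested, 1 passed by edgeR (5.0%, against 7.53% of all tested genes). By DESeq2 and by limma-voom 2 passed, and 7 had an unadjusted p under 0.05 by edgeR. The gene that passed by edgeR was *Igf2r*, another receptor that sorts lysosomal enzymes, at 542 ± 17 CPM in vehicle and 667 ± 11 CPM in bilirubin cultures (SD, n = 4 each). It rose by a log2 fold change of 0.30 (SE 0.03, edgeR adjusted p = 0.00101), in 4 of 4 mice. The core retromer gene *Vps35* was at 0.06 (edgeR adjusted p = 0.387).

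Among the listed partner genes, the largest change in either direction was in a ligand. Of 22 tested genes listed as ligands of the family, 4 fell and 3 rose, with a median log2 fold change of -0.11. The share called was 31.8% of those tested, against 7.53% of all tested genes. *Apoe*, the apolipoprotein E gene, was at 3027 ± 252 CPM (SD, n = 4) in vehicle and 1577 ± 309 CPM (SD, n = 4) in bilirubin cultures, a log2 fold change of -0.96 (SE 0.06, edgeR adjusted p = 0.000102). *Thbs1*, which encodes thrombospondin 1, fell by 1.28 on the log2 scale (SE 0.06), *Serpine2*, a protease inhibitor, fell by 1.50 (SE 0.15), and *Plau*, which encodes urokinase, fell by 0.88 (SE 0.12). All 4 were lower in every bilirubin culture than in any vehicle culture, as were 4.69% of all tested genes in CPM. They were named because they were called, so nothing is read from this. *Mmp9*, which encodes a gelatinase, rose from 22, 9, 9 and 6 counts in vehicle to 468, 207, 942 and 621 counts in bilirubin cultures, a log2 fold change of 5.72 (SE 0.30) that rests on low vehicle counts. The complement gene *C3* rose by 3.05 (SE 0.12), from 15.6 to 132 CPM on average. *Nampt*, which encodes an enzyme of NAD synthesis, rose by 0.21 (SE 0.04) and lost its call without mouse 3, without mouse 4 and with the length offset. Binding of the *Nampt* product to a receptor of the family was not tested. Its place in the list is open, though it was counted in the share above.

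On the Wnt side, of 24 tested genes 3 fell and 1 rose (16.7%, against 7.53% of all tested genes). The list's median log2 fold change was -0.10. The Frizzled receptor genes *Fzd7* and *Fzd5* fell by 0.80 (SE 0.09) and 0.35 (SE 0.06) on the log2 scale, and *Tcf7l2*, a transcription factor of the pathway, fell by 0.45 (SE 0.05), each in 4 of 4 mice. *Fzd5* lost its call without mouse 4 and with the length offset. *Cav1*, which encodes caveolin 1, rose by 1.51 (SE 0.13). *Ctnnb1*, which encodes beta-catenin, was at 0.13 (SE 0.05, edgeR adjusted p = 0.165).

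Among 13 tested genes for shedding and cleavage within the membrane, 2 rose and 1 fell (23.1%, against 7.53% of all tested genes). The list's median log2 fold change was 0.02. *Mmp14*, which encodes a membrane-bound metalloprotease, rose by 2.48 (SE 0.15), from 20.0 ± 1.5 to 115 ± 39 CPM (SD, n = 4). *Adam17*, which encodes a sheddase, rose by 0.41 (SE 0.04, edgeR adjusted p = 0.000604). *Furin*, the convertase that cuts the LRP1 precursor, fell by 0.18 (SE 0.03, edgeR adjusted p = 0.0154), a call that was lost without the replicate block, with the length offset and without mouse 2, mouse 3 or mouse 4.

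Of 13 sterol-regulated genes, all tested, 2 rose (15.4%, against 7.53% of all tested genes). The list's median log2 fold change was -0.03. *Abca1*, a cholesterol exporter, rose by 1.22 (SE 0.16), and *Nr1h3*, which encodes the sterol sensor LXR alpha, rose by 0.42 (SE 0.06). The genes of cholesterol synthesis *Hmgcs1*, *Sqle*, *Idi1* and *Fdft1* were between -0.13 and -0.02 and did not pass the threshold. *Insig1*, also of this list, was at -0.22 and lower in 4 of 4 mice (edgeR adjusted p = 0.0648). *Abcg1* was at 0.15 (edgeR adjusted p = 0.469), and neither passed.

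**Figure D5:**
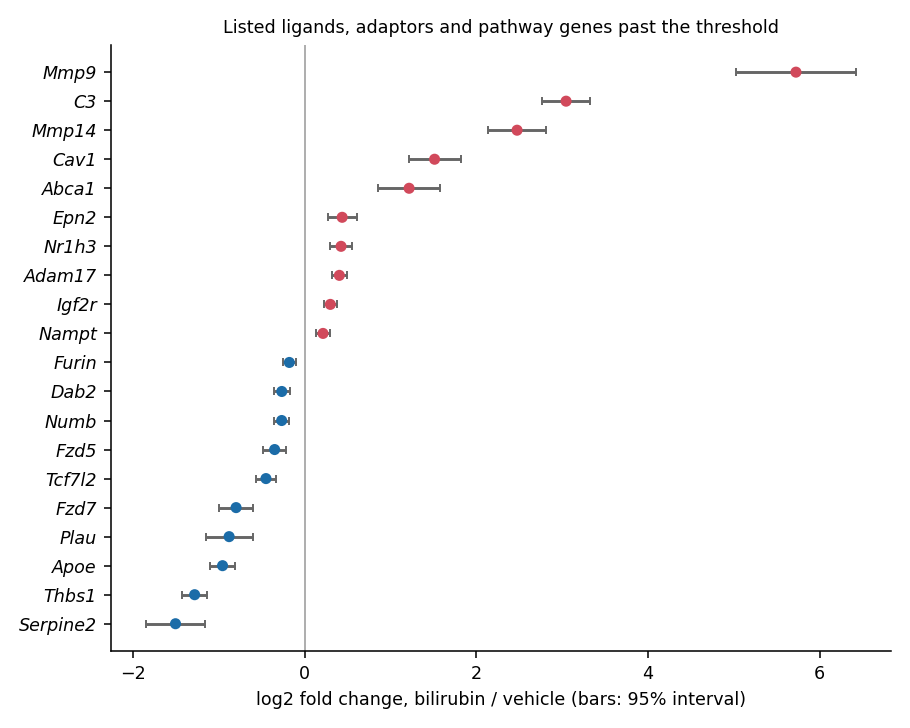
Log2 fold change of bilirubin over vehicle (x axis) with its 95% interval for the 20 genes of the partner lists that passed the threshold, higher in red and lower in blue. The values run from -1.50 for *Serpine2* to 5.72 for *Mmp9*.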

How the data were processed

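Primary BMDM were sequenced from poly A libraries, with the culture pairs of 4 mice taken from the labels. The authors trimmed reads with Trim Galore 0.6.7 and Cutadapt 3.4, aligned them with STAR 2.7.9a to GRCm39, and quantified them with Salmon 1.10.1. Deposited per gene were the estimated counts (expected counts) of Salmon, not scaled for depth or length. The authors also deposited the TPM and estimated counts of each transcript per library, and these were summed by gene symbol for levels and shares. Tool versions are per the submitters' processing notes.

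Estimated counts were rounded and tested with edgeR 4.0.16 in R 4.3.3 (TMM scaling, filterByExpr with at least 10 counts and 15 in total, mouse and treatment in the model, quasi-likelihood test), with Benjamini-Hochberg adjustment over 13722 genes and a threshold of 0.05. Standard errors were derived from each F statistic, and log2 CPM used a prior count of 2. On simulated data of this comparison, 97.5% of 197 changed genes among 13579 were recovered, with 6.3% of calls false. Recovery of changes as small as those of the members was not tested separately, so these shares are not read for them. Alternatives were DESeq2 1.42.0, limma 3.58.1 as voom, other scalings, filters and offsets, and each mouse left out. Fits without the trend along transcript length or GC content were chosen after seeing the data.

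The mouse pairs come from the labels. Deviations of the cultures of a mouse from their group means correlated by 0.108, 0.134, 0.108 and -0.005 in mice 1 to 4. The average was 0.086, against an average of -0.028 and a highest value of 0.075 between mice. Members and lists were chosen with earlier results of these data known. Named were all members, the genes of each partner list past the threshold (the 4 with the smallest adjusted p where over 6 passed in a direction), genes fixed by name, and the 2 genes most like each member. The genes of cholesterol synthesis, *Insig1*, *Abcg1*, *Ldlrad4*, the untested receptors and the marker genes were named after their values were seen. Raw reads were not analysed, and some listed genes are not reported here and are left out of the list counts.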

Additional observations from a re-analysis of the deposited data

Results flagged for a closer look

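In groups of 4 values, a value was marked where its gap to the nearest other relative to the range of the group exceeded Dixon's 95% critical value. This was examined for 24 groups (the CPM in each treatment group and the change by mouse, for each of the 8 genes) and marked 3, and chance marks about 1 in 20 groups. The log2 change of *Sort1* was -0.06 in mouse 2, against -0.24 to -0.25 in the other mice, a gap of 0.967 of the range. The log2 change of *Lrpap1* was -0.15 in mouse 1, against 0.01 to 0.04 in the other mice, a gap of 0.845 of the range. The level of *Sorl1* in the bilirubin culture of mouse 1 was 39.1 CPM, against 27.5 to 29.3 CPM in the other bilirubin cultures, a gap of 0.839 of the range. The bilirubin library of mouse 1 was also the shallowest, with 34142781 counts. Its part in these values was not tested.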

How the results depend on the processing

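Of the members, 4 were called, and also 4 under DESeq2, limma-voom, both other scalings, both filters and both trend corrections. The exceptions were the length offset, with 2 members called (*Lrp5* and *Lrp12*), and the model without the replicate block, with 3 (without *Sort1*). Leaving out a mouse gave 2 to 4, the lowest without mouse 3. The log2 fold change of each called member was negative under all 14 alternatives. Partner genes called numbered 20, and 32 with no filter, and 16 to 38 with a mouse left out, the highest without mouse 1. Of all genes, 1033 were called, 686 without the replicate block, 1692 with no filter and 579 with the length offset, and 377 without mouse 3 to 1910 without mouse 1. The cause was not tested. Scaling by library size alone moved the share called higher from 59.63% to 48.66%. Unpaired fitting left *Dab2* and *Furin* uncalled among the partner genes. In CPM in place of TPM, *Sort1* ranked 3 among the members in vehicle cultures, *Lrp10* 4 and *Lrp12* 5. On the given strand alone, 2 members held a CCAAT box in place of 5. Shares of the *Sort1* and *Lrp12* forms moved by less than their SD when taken from estimated counts. Depth limits *Vldlr*, with 3 to 20 counts.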
